A study of Mus musculus with 6 samples.

Results

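STAT proteins are transcription factors that carry cytokine signals from the cell surface to DNA, and 6 of their genes, Stat2, Stat3, Stat4, Stat5a, Stat5b and Stat6, are described here in splenic γδ T cells. The members were chosen by gene symbol, with earlier results of these data known. All 6 had a row among the 19390 genes of the deposited count table. All 6 were also among the 12810 genes with enough counts to be tested. Messenger RNA was sequenced from γδ T cells, the T lymphocytes whose receptor is made of γ and δ chains, which flow cytometry had sorted out of the spleens of mice aged 6 weeks. The 3 libraries titled WT were taken as those of USF3-f/f mice and the 3 titled KO as those of USF3-f/f; CD2-cre mice. Both groups thus carry the floxed Usf3 alleles, and only the KO group carries the CD2-cre transgene, which drives Cre recombinase in the lymphoid lineage, so effects of the transgene and of the floxed deletion cannot be told apart. The labels do not say whether libraries of a group came from separate animals, and p-values then measure only the spread between these libraries, which may be technical.

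A cytokine that binds its receptor brings together Janus kinases (JAKs), which phosphorylate the receptor and then a STAT protein on a tyrosine. Phosphorylated STATs pair, enter the nucleus and bind DNA, and SOCS proteins and phosphatases end the signal. In T lymphocytes STAT2 serves type I interferon, STAT3 serves interleukin-6 (IL-6), IL-10, IL-21 and IL-23, STAT4 serves IL-12, STAT5A and STAT5B serve IL-2, IL-7 and IL-15, and STAT6 serves IL-4 and IL-13. These signals act on STAT proteins already made, so an mRNA level is not a measure of STAT activity.

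The libraries held 34644862 to 35806402 counts each, and mitochondrially encoded genes took 1.39% to 1.61% of them. Usf3, the targeted gene, ran from 2499 to 2593 counts over the WT libraries and from 2348 to 2532 over the KO libraries and was not called (edgeR adjusted p = 0.261), so that a count over the whole gene did not separate the groups. The 8 T cell markers summed to 2496 ± 19.5 CPM (counts scaled to a common library size) in WT and 2380 ± 41.2 in KO (n = 3 per group, SD), with Cd3g, Cd3d, Cd3e and Cd2 called lower in KO. The γδ receptor genes on the marker list had no row under those symbols in the deposited counts, so they could not be analysed here. Of the transcription factor and kinase genes on that list, Sox13 had means of 4.36 ± 0.692 CPM for WT and 3.23 ± 0.313 for KO, and Blk fell from 3.10 ± 0.699 to 1.39 ± 0.170 CPM. Summed markers of B cells, of monocytes and macrophages, of dendritic cells and of neutrophils were at most 10.9 CPM per list in any library, and those of erythroid cells and platelets at most 0.892 CPM. The monocyte and macrophage sum was 8.04 to 10.9 CPM over the WT libraries and 7.26 to 7.48 CPM over the KO libraries, without overlap. Two-way differences were seen, since the dendritic cell sum and the erythroid and platelet sum also separated the groups, with KO above WT in both. Sums of B cell and of neutrophil markers overlapped between the groups. Cd4 and Cd8b1, the αβ T cell markers with a row, together gave 18.6 ± 0.385 CPM in WT and 18.3 ± 0.496 in KO. The part of these cells in the STAT results was not tested.

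Stat2 and Stat3 were lower and Stat4 was higher in KO than in WT γδ T cells, and Stat5a, Stat5b and Stat6 did not pass the test. The changes were small: Stat2 fell by 16.7%, Stat3 fell by 9.21%, and Stat4 rose by 14.4%. Calls are those of edgeR's quasi-likelihood test on counts with a Benjamini-Hochberg adjusted p below 0.05, where the adjustment covers all 12810 tested genes. By that rule 3 of the 6 STAT genes were called, where 17.3% of all tested genes were. The STAT genes are well counted, with means over the libraries of 1807 to 9317 counts, and in that range of counts 24.3% of tested genes were called. Because the family was chosen with earlier results of these data known, setting these shares beside its count is only descriptive. The median log2 fold change of the 6 was -0.0072, beside 0.0014 over all tested genes.

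**Figure D1:**
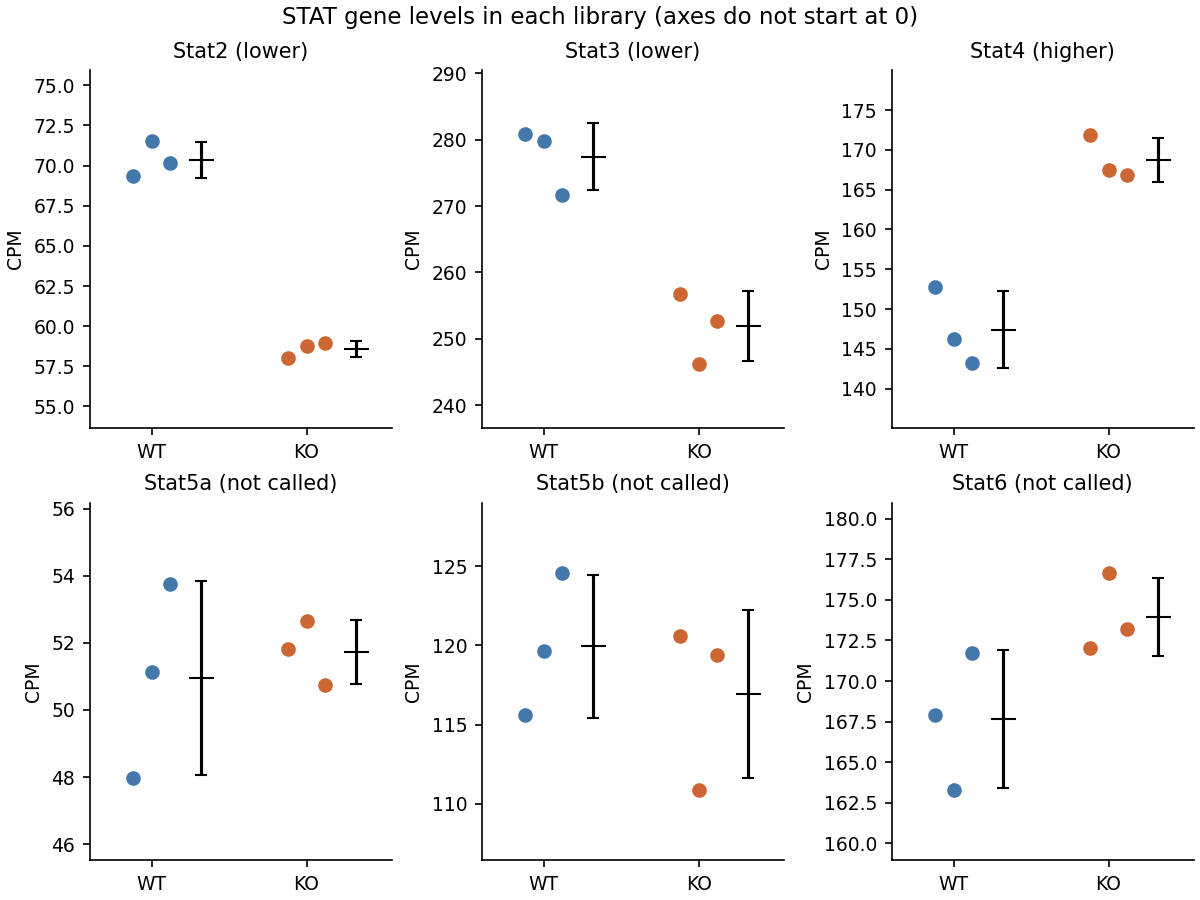
Level of each STAT gene in every library, in CPM on axes that do not start at 0; blue points are the 3 WT libraries, orange points the 3 KO libraries, and black bars the group mean with its SD. The KO libraries lie below the WT ones for Stat2 and Stat3, above them for Stat4 and barely above them for Stat6 (172.0 against 171.7 CPM at the nearest), and the groups overlap for Stat5a and Stat5b.

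Stat2 encodes the partner of the DNA-binding protein IRF9 in ISGF3, the complex that type I interferon activates. Its level was 69.4, 71.6 and 70.2 CPM in WT libraries 1, 2 and 3, against 58.0, 58.8 and 59.0 CPM in KO libraries 1, 2 and 3. All 3 KO libraries were below all 3 WT libraries, and the nearest KO library was still 15.0% below the nearest WT library. The means were 70.4 ± 1.12 CPM in WT and 58.6 ± 0.484 in KO (n = 3 per group, SD). The log2 fold change was -0.26 ± 0.041 (SE), with a 95% interval of the change from -21.5% to -11.7% (edgeR adjusted p = 4.28e-05). Among the 6 genes this was the largest change in size.

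The sequence upstream of Stat2 is shown because it holds a match to the core of the interferon-stimulated response element (ISRE), the DNA element that ISGF3 binds. The 250 bases before the RefSeq start of Stat2 (GRCm38.p6, chr10:128270248-128270497, plus strand) are given with the match to the motif GAAANNGAAA, searched on both strands, in capitals; it begins 222 bases before the start and lies on the opposite strand.
Stat2 upstream: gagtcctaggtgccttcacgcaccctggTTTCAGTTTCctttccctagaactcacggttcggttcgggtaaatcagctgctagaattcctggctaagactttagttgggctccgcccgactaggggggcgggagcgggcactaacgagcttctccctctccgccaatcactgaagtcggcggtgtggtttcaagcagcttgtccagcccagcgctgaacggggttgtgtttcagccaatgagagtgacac
The same 10 letters, TTTCAGTTTC, stand upstream of the interferon-induced genes Ifit1 and Ifit3, and Isg15 has 3 overlapping matches on its own strand. Stretches around these matches (GRCm38.p6) are shown for comparison, again with matches in capitals.
Ifit1, chr19:34640775-34640823, plus strand: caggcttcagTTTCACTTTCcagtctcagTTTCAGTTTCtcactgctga
Ifit3, chr19:34583363-34583426, plus strand: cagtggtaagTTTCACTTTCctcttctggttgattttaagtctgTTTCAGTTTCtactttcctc
Isg15, chr4:156200865-156200906, minus strand: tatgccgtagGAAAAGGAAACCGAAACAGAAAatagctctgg
Such a match was found in 2.98% of all 32851 upstream stretches of that length in the RefSeq table, which is a description of letters and not of binding.

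Stat3 encodes the STAT of the IL-6 and IL-10 families and of IL-21 and IL-23, and is needed for interleukin-17 programmes in T helper cells. Its level was 281, 279.9 and 272 CPM in WT libraries 1, 2 and 3, against 257, 246 and 253 CPM in KO libraries 1, 2 and 3. The groups did not overlap, with the nearest KO library 5.50% below the nearest WT library. The means were 277 ± 5.04 CPM in WT and 252 ± 5.30 in KO (n = 3 per group, SD). The log2 fold change was -0.14 ± 0.027 (SE), and the 95% interval of the change ran from -12.7% to -5.59% (edgeR adjusted p = 0.000648). The lncRNA gene Gm46295 overlaps the Stat3 locus in the RefSeq annotation and had 53 to 85 counts in WT libraries against 42 to 54 in KO libraries, far fewer than Stat3's 8787 to 9993, and was not called (edgeR adjusted p = 0.194).

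Stat4 encodes the STAT of IL-12, which promotes interferon-γ production in type 1 lymphocytes. Its level was 153, 146 and 143 CPM in WT libraries 1, 2 and 3, against 172, 167 and 167 CPM in KO libraries 1, 2 and 3. All KO libraries were above all WT libraries, by 9.21% at the nearest. The means were 147 ± 4.86 CPM in WT and 169 ± 2.73 in KO (n = 3 per group, SD), a log2 fold change of 0.19 ± 0.032 (SE; 95% interval of the change 9.29% to 19.9%; edgeR adjusted p = 9.77e-05). Of the 6 genes, 1 was thus called higher, Stat4, and 2 lower, where 7.23% of all tested genes were called higher and 10.1% lower.

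The RefSeq table gives 2 starts for Stat4, and its second is shown because it is the only other stretch upstream of the 6 genes with a match to GAAANNGAAA, in capitals, here beginning 97 bases before the start on the gene's own strand (GRCm38.p6, chr1:52007990-52008239, plus strand).
Stat4 upstream, second start: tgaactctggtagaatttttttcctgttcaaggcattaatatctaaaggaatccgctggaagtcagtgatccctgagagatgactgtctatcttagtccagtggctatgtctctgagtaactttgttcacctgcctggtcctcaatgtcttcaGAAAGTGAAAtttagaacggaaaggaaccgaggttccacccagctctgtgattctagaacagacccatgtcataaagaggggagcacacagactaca
Stat4, with this match, was higher in KO, and Stat2, with the other, was lower. The counts are per gene and do not say which start was used. None of the 9 upstream stretches of the 6 genes held the STAT dimer motif TTCNNNGAA or the E-box CACGTG, the motif of upstream stimulatory factors, which were found in 7.02% and 6.02% of all stretches.

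Stat5a and Stat5b encode the closely related STATs of IL-2, IL-7 and IL-15 and lie side by side in the genome. Stat5a was at 48.0, 51.1 and 53.7 CPM in WT libraries 1, 2 and 3, against 51.8, 52.6 and 50.7 CPM in KO libraries 1, 2 and 3. Its KO values all lay within those of WT. A log2 fold change of 0.022 ± 0.048 (SE) was fitted, with a 95% interval of the change from -5.27% to 8.87% (edgeR adjusted p = 0.816). Stat5b was at 116, 119.6 and 125 CPM in WT and at 121, 111 and 119 CPM in KO libraries 1, 2 and 3. KO library 2 was below every WT library, and the other two lay among them. The log2 fold change of Stat5b was -0.037 ± 0.039 (SE), with an interval from -7.79% to 3.07% (edgeR adjusted p = 0.587). These intervals leave out falls as large as that of Stat2 for both genes, but a change of a few percent in either direction was not detectable.

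Reads of this pair can be hard to assign. Of all stretches of 100 bases in the protein-coding GENCODE transcripts of Stat5a, 6.31% also occur in those of Stat5b, and 4.87% of those of Stat5b occur in Stat5a. At 50 bases the shares were 14.7% and 11.1%. No other pair of the 6 genes shared a stretch of 50 bases or more. Neither the read length nor the treatment of reads with several matches is stated in the labels, so the division of reads between Stat5a and Stat5b is uncertain.

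Stat6 encodes the STAT of IL-4 and IL-13. It stood at 168, 163 and 172 CPM in WT libraries 1, 2 and 3, against 172, 177 and 173 CPM in KO libraries 1, 2 and 3. The KO libraries were all above the WT ones, but by only 0.159% at the nearest, and the log2 fold change of 0.053 ± 0.030 (SE; 95% interval of the change -0.662% to 8.39%) was not called (edgeR adjusted p = 0.263). With Stat6, 4 of the 6 genes had groups that did not overlap, as had 32.1% of all tested genes. That comparison is only descriptive as well, since the family was chosen with earlier results known. The end of Stat6 overlaps that of Nab2, a co-repressor gene of EGR factors, in the RefSeq annotation. Nab2 rose from 34.4 ± 0.961 to 47.2 ± 0.749 CPM (n = 3 per group, SD; log2 fold change 0.46 ± 0.049, SE; edgeR adjusted p = 2.73e-07). The lncRNA gene Gm30989 overlaps Stat6 as well and was not called (edgeR adjusted p = 0.525). It had 78 to 93 counts in WT libraries against 60 to 139 in KO libraries. The labels do not state whether the counting used strand, and whether Nab2 reads are part of the Stat6 counts was not tested.

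Levels of different genes can be compared per length, in the deposited FPKM (counts scaled by gene length and by the library's total). In WT, Stat3 was highest at 60.1 ± 1.25 FPKM, followed by Stat4 at 45.8 ± 1.65, Stat6 at 43.9 ± 1.05, Stat2 at 15.7 ± 0.234, Stat5b at 15.0 ± 0.520 and Stat5a at 11.1 ± 0.595 (n = 3 per group, SD). Stat4 and Stat6 overlapped between libraries there, as did Stat2 and Stat5b, while the other neighbours in the order did not. In KO, Stat3 at 54.9 ± 1.30 FPKM and Stat4 at 52.8 ± 0.955 overlapped, and Stat6 followed at 45.9 ± 0.511, Stat5b at 14.7 ± 0.706, Stat2 at 13.1 ± 0.0915 and Stat5a at 11.3 ± 0.192 FPKM without overlap. Stat2 thus ranked above Stat5b by mean in WT and below it in KO.

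The sum of the 6 genes was 192 ± 1.40 FPKM in WT and 193 ± 2.18 in KO (n = 3 per group, SD), and the groups overlapped. Within that sum, Stat4 took 23.9% ± 0.690 in WT and 27.4% ± 0.244 in KO, Stat3 31.4% ± 0.528 and 28.5% ± 0.376, and Stat2 8.18% ± 0.166 and 6.81% ± 0.112. Stat3 in WT was above 90.6% of all tested genes in FPKM and Stat5a above 60.9%, so all 6 genes were above the middle of the range. The gene lengths implied by the deposited FPKM run from 3208 bp for Stat4 to 7954 bp for Stat5b, and an order between genes depends on them.

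**Figure D2:**
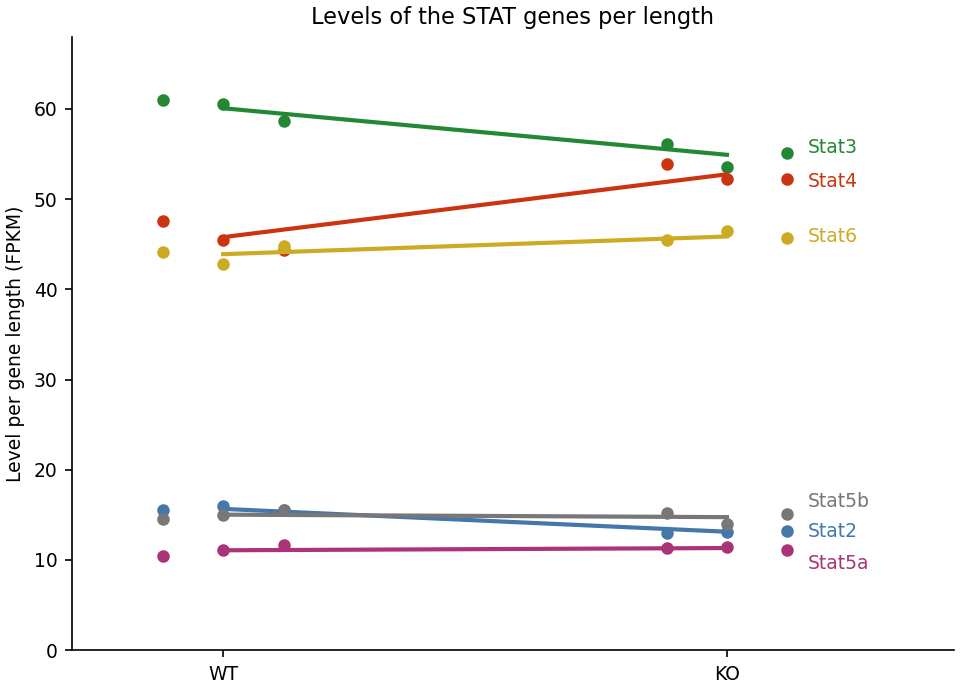
Level per gene length (FPKM, axis from 0) of the 6 STAT genes; points are libraries, and lines join the group means of WT and KO. Stat3 and Stat4 lie apart in WT (60.1 and 45.8 FPKM) and close together in KO (54.9 and 52.8 FPKM).

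Ratios between STAT genes within a library do not depend on how libraries are scaled, so they compare the genes' changes directly. The level of Stat4 relative to Stat3, per length, was 0.780, 0.750 and 0.756 in WT libraries 1, 2 and 3, against 0.960, 0.976 and 0.947 in KO libraries 1, 2 and 3. The log2 ratio was thus higher by 0.33 in KO, with no overlap. The largest shift was that of Stat4 relative to Stat2, from 3.07, 2.85 and 2.85 in WT to 4.13, 3.98 and 3.95 in KO, a log2 difference of 0.46. Both gave p = 0.1 in a two-sided exact permutation test over libraries, the smallest p that 3 against 3 allows, and an adjusted p of 0.15 over the 15 pairs.

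Of the 15 pairs, 10 had ratios that did not overlap between the groups. Over all pairs of tested genes with a count in every library the share was 30.3%, and over pairs with mean counts in the range of the 6 genes it was 44.6%. The 15 pairs are made from 6 genes and largely restate the differences of Stat2, Stat3 and Stat4 given above. Stat4 was higher relative to another member without overlap in 4 of its 5 pairs, all of which use the same Stat4 values, and its ratio to 58.2% of the other tested genes did not overlap either. The pair with Stat5a overlapped (log2 difference 0.17, exact permutation p = 0.2). The mean ratio of Stat3 to Stat2 was 3.84 in WT and 4.18 in KO, without overlap (log2 difference 0.12, exact permutation p = 0.1). Among Stat5a, Stat5b and Stat6 none of the 3 pairs separated the groups, with log2 differences of 0.030 to 0.090. No pair could pass the threshold in this design.

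**Figure D3:**
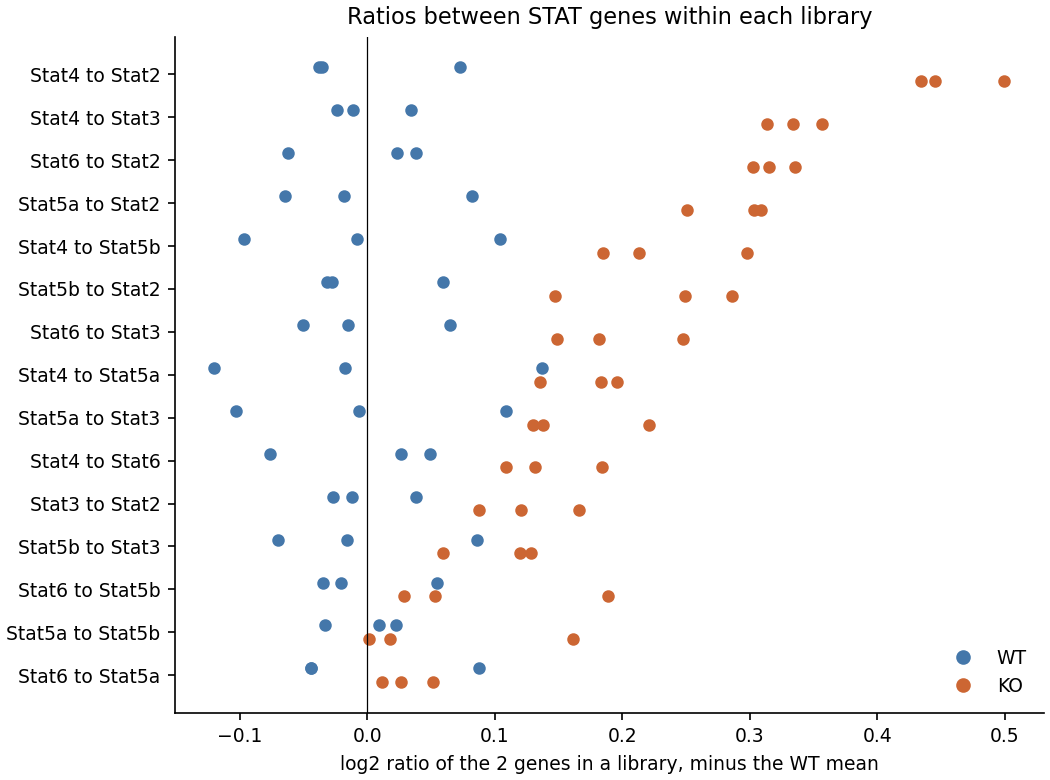
Each row is a pair of STAT genes, and each point the log2 ratio of the pair in a library minus the WT mean of that ratio (WT blue, KO orange). KO points lie to the right of all WT points in 10 of the 15 pairs, which are made from 6 genes. Of all pairs of tested genes 30.3% did not overlap, and of pairs in the same range of mean counts 44.6%. The widest shift, 0.46, is that of Stat4 to Stat2.

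For each called STAT gene, the tested genes with the most similar pattern were found by the root mean square difference of log2 CPM over the 6 libraries, after subtracting each gene's own WT mean. Nearest to Stat3 were the transporter gene Abcc4 (0.011), the kinase gene Jak3 (0.012) and Cnep1r1 (0.013), of which Jak3 was called lower and Abcc4 and Cnep1r1 were not. Nearest to Stat2 were Macroh2a1, a histone variant gene (0.013), Errfi1, a feedback inhibitor gene of EGF receptor signalling (0.013), and Traf1, an adaptor gene of TNF receptors (0.017), all called lower. Nearest to Stat4 were Sptlc1, a sphingolipid synthesis gene (0.013), Ydjc (0.019) and the costimulatory receptor gene Icos (0.019), of which Ydjc was not called. Some genes are nearest to any pattern, and no background distance was taken. Likeness over 6 libraries in 2 groups is therefore only a description, and shared regulation was not tested.

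Stat5b, Stat5a and Stat3 form a row on chromosome 11, where Stat3 was called lower and the other two were not called. The ratio of Stat5a to Stat3 separated the groups (exact permutation p = 0.1), and that of Stat5b to Stat3 did not (exact permutation p = 0.2). Beyond Stat5b the next protein-coding gene, Ghdc, had 227 to 259 counts in WT libraries against 306 to 319 in KO libraries and was called higher (log2 fold change 0.33 ± 0.110, SE; edgeR adjusted p = 0.0386). Beyond Stat3, Cavin1 had at most 3 counts in a library. Next to Stat2 on chromosome 10, the overlapping gene Apof had at most 4 counts and Il23a, the gene of an IL-23 subunit, at most 6.

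The genes that feed into STATs and those that STATs act on were, where called, mostly lower in KO. Over 103 tested genes of the pathway lists, leaving out the STATs, 55 were called lower and 10 higher, beside 10.1% lower and 7.23% higher among all tested genes, with a median log2 fold change of -0.21. Because these lists were drawn up after earlier results of the data were known, any excess over all tested genes may come partly from that choice. Genes of the handling and immediate early list moved as well: 9 of 15 were lower and 1 was higher, with a sum of 3344 ± 20.6 CPM in WT and 2764 ± 54.5 in KO (n = 3 per group, SD). Their part in the STAT results was not tested.

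**Figure D4:**
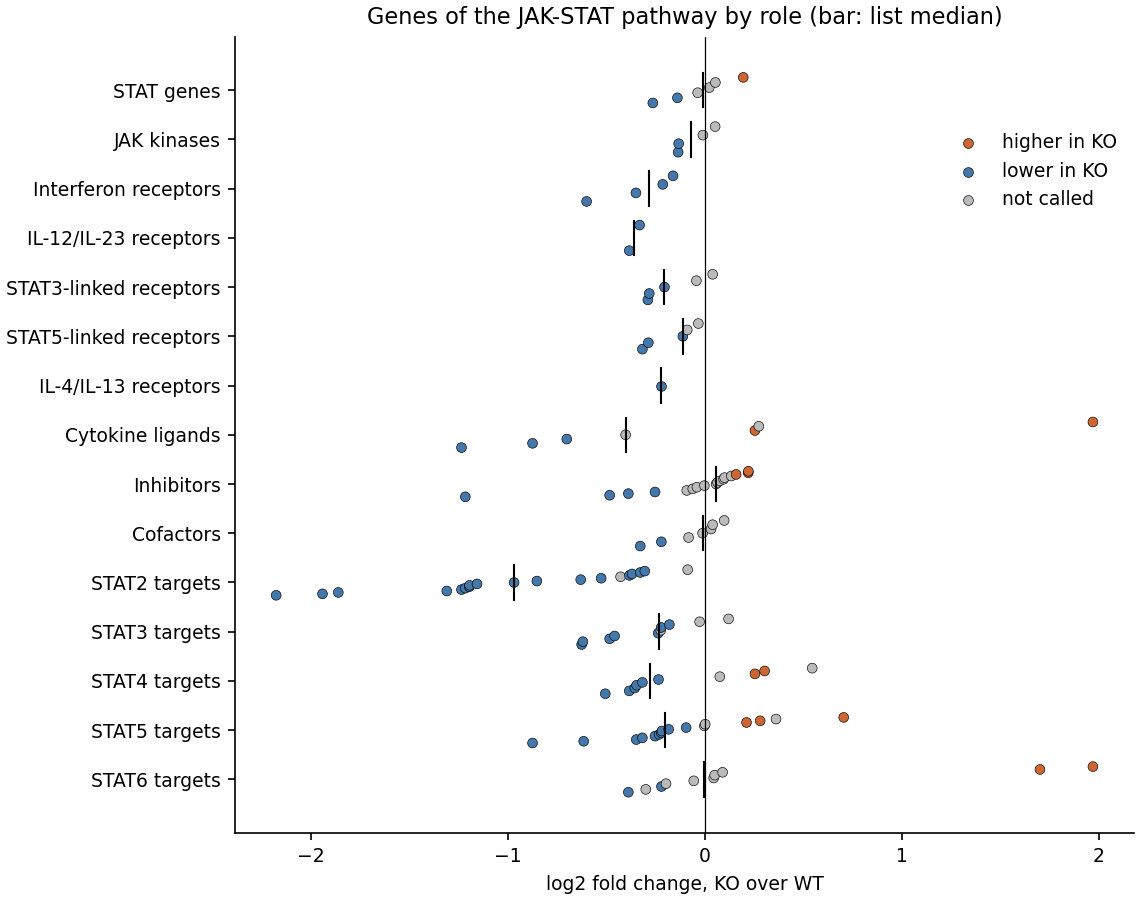
Log2 fold change (KO over WT) of every tested gene in each pathway list, coloured by the edgeR call at an adjusted p under 0.05; black bars are list medians. The STAT genes lie on both sides of 0, between -0.26 and 0.19, while 17 of 19 STAT2 targets are called lower (10.1% of all tested genes were).

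Among the kinases, Jak2 and Jak3 were lower, from 170.0 ± 1.50 to 155 ± 0.670 CPM and from 253 ± 2.67 to 231 ± 3.35 CPM (n = 3 per group, SD). Their log2 fold changes, -0.14 ± 0.029 and -0.13 ± 0.027 (SE), were near that of Stat3 (edgeR adjusted p = 0.00173 and 0.000849). JAK3 works with the common γ chain, and Il2rg, the gene of that chain, was also lower, with a log2 fold change of -0.11. Jak1 and Tyk2 did not pass, at 0.052 and -0.0099 on the log2 scale.

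Receptor chains were lower or not called. Of 17 tested chains 0 were called higher, which is near the share of 7.23% over all tested genes. Those called lower were 4 of 4 for interferons and 2 of 2 for IL-12 and IL-23. Linked to STAT3 they were 3 of 5, to STAT5 3 of 5 and to STAT6 1 of 1. Over all tested genes 10.1% were called lower, and these lists were chosen with earlier results known. All 4 interferon receptor chains were lower: Ifngr1 and Ifngr2, for interferon-γ, by log2 fold changes of -0.60 and -0.35, and Ifnar1 and Ifnar2, for type I interferon, by -0.21 and -0.16. Both tested chains of the IL-12 receptor, upstream of STAT4, were lower while Stat4 was higher. Il12rb1 went from 309 ± 2.66 to 246 ± 7.95 CPM and Il12rb2 from 318 ± 9.65 to 243 ± 11.8 CPM (n = 3 per group, SD; edgeR adjusted p = 4.50e-09 and 4.86e-09).

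Of 5 tested chains linked to STAT3, Il10ra, Il10rb and Il6st were lower, at -0.29, -0.21 and -0.28 on the log2 scale, and Il21r and Il27ra did not pass. Il6ra, Lifr and Il23r had at most 11, 5 and 9 counts in a library and were not tested. Osmr, the gene of an oncostatin M receptor chain, had no row under that symbol. Of 5 linked to STAT5, Il2ra, Il2rg and Il7r were lower, at -0.32, -0.11 and -0.29. Il2rb, the most abundant chain at 2224 CPM in WT, and Il15ra did not pass. Il4ra, the chain that recruits STAT6, was lower at -0.22 ± 0.029 (SE; edgeR adjusted p = 5.62e-06), while Stat6 itself did not pass.

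Of 18 cytokine genes on the ligand list, 7 had enough counts to be tested. Among them 3 were called lower and 2 higher, beside 10.1% lower and 7.23% higher among all tested genes. Csf2 and Ebi3 were not called. Lif and Osm, which signal mainly through STAT3, were lower: Lif went from 229 ± 5.60 to 97.5 ± 0.801 CPM and Osm from 51.2 ± 0.624 to 27.9 ± 1.39 CPM (n = 3 per group, SD). Il10, another STAT3 cytokine, changed by -0.70 ± 0.061 on the log2 scale (SE). Il13, a STAT6 cytokine, rose by 1.97 ± 0.177, from 1.86 to 7.29 CPM, and Ifng by 0.25 ± 0.040. The edgeR adjusted p of these 5 genes were at most 5.55e-05.

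Of 17 tested inhibitors of STAT signalling, 4 were called lower and 3 higher, beside 10.1% lower and 7.23% higher among all tested genes. Their median log2 fold change was 0.057. Socs1, Socs2 and Socs3, which are themselves induced by STATs, were lower at -0.39, -0.25 and -0.48, and Usp18, the brake on the type I interferon receptor, at -1.22. Ptpn6, Ptpn1 and Socs6 were higher at 0.22, 0.16 and 0.22; Ptpn6 and Ptpn1 encode the phosphatases SHP-1 and PTP1B. Cish, the most abundant inhibitor gene and a classical STAT5 target, did not pass, with 274 CPM in each group and a log2 fold change of -0.0026 ± 0.025 (SE; edgeR adjusted p = 0.963). Of 7 tested cofactors, Irf9, the DNA-binding partner in ISGF3, and Nmi, which binds STAT proteins, were lower at -0.33 ± 0.044 and -0.22 ± 0.044 (SE), and the acetyltransferase genes Ep300 and Crebbp did not pass.

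Target genes were grouped by the STAT best known to act on them, although many respond to several. Among all tested genes 10.1% were called lower and 7.23% higher. Setting these shares beside the counts of each group is only descriptive, since the groups too were chosen with earlier results known. STAT2 targets had 17 of 19 tested members lower and 0 higher, with a median log2 fold change of -0.97, beside -0.26 for Stat2 itself. Oas3, an interferon-induced synthetase gene, went from 105 ± 3.85 to 68.1 ± 2.25 CPM, Irf7 from 51.7 ± 1.81 to 35.9 ± 0.243 CPM and Rtp4 from 18.8 ± 1.83 to 10.4 ± 0.598 CPM (n = 3 per group, SD). Oas1a and Rigi did not pass, at -0.43 and -0.087. Of the 15 tested STAT2 targets with an upstream stretch in the RefSeq table, 7 held the ISRE core shown above, Oas1a among them. The share over all tested genes with such a stretch was 3.23%. These shares describe the listed genes and not the difference between the groups.

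STAT3 targets had 7 of 10 tested members lower and 0 higher, with a median of -0.23. Fosl2, an AP-1 gene, Rora, a nuclear receptor gene of type 17 cells, Pim1, a survival kinase gene, and Junb were lower at -0.46, -0.63, -0.22 and -0.24, and Junb is also on the handling list. Bcl3, Bcl6 and Mcl1 did not pass.

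STAT4 targets went both ways although Stat4 was higher, with 6 of 10 lower, 2 higher and a median of -0.28. Il18r1, a chain of the IL-18 receptor, went from 304 ± 4.82 to 239 ± 3.68 CPM, and Il12rb2 and Il2ra, named above, were also lower. The higher members were Ifng and Ets1, a transcription factor gene that rose from 405 ± 7.13 to 499.6 ± 9.20 CPM (n = 3 per group, SD).

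STAT5 targets had 10 of 16 members lower and 3 higher, with a median of -0.20, while neither Stat5a nor Stat5b passed the test. Myc, Osm and Gzmb, the granzyme B gene, were lower at -0.62, -0.87 and -0.22. Eomes, a T-box factor gene, rose from 307 ± 4.03 to 499.8 ± 4.72 CPM (n = 3 per group, SD; log2 fold change 0.70). STAT6 targets had 2 of 10 higher, Il13 and Ccr8, a chemokine receptor gene at 0.513 ± 0.179 CPM in WT and 1.67 ± 0.168 in KO. Il4ra and Socs1 were the 2 lower members, and Gata3, the type 2 master regulator gene, did not pass at 0.090 ± 0.060 (SE; edgeR adjusted p = 0.351).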

How the data were processed

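RNA of sorted splenic γδ T cells was sequenced in 3 WT and 3 KO libraries, grouped by title. The deposited counts are whole numbers per gene symbol; fastp, HISAT2, HTSeq and the build GRCm39 are named in the submitters' processing notes, but with no version, role or setting, and neither annotation nor strand setting is stated. The deposited FPKM are the same counts scaled by library total and by a single length for each gene.

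KO was compared with WT in edgeR 4.0.16 under R 4.3.3 (TMM scaling, filterByExpr, glmQLFit and glmQLFTest on group, all 6 libraries), with Benjamini-Hochberg adjustment over 12810 tested genes; the filter left out 0.0366% of counts. CPM use TMM-scaled library sizes (factors 0.994 to 1.01). Standard errors were taken from the fold change and its F statistic. The biological coefficient of variation was 4.16%. For the 6 STAT genes in WT, the coefficient of variation was 1.59% to 5.67%, where counting error alone would give 1.01% to 2.36%; for Stat2 the observed 1.59% was below the 2.01% of counting error. Library pairs of a group were further apart than sampling noise (3.28 to 7.24 for chi-square per degree of freedom).

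The members and the pathway and marker lists were chosen with earlier results of these data known. All STAT genes were named, and from each list the members called with the smallest p and the most abundant; some named by that rule are given only by count. As alternatives, DESeq2 1.42.0 and limma 3.58.1 (voom, and trend on log2 FPKM after adding 0.1 or 1), 3 other scalings (total count, upper quartile, RLE), other filters, the replicate number as a block and leaving out each library were tried. The fit was tested on simulated counts. Ratios were tested with SciPy 1.17.1. Upstream sequences are from RefSeq (GRCm38.p6, matched by symbol for all 6 genes), and neighbours from its gene order; no GRCm39 coordinates were used.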

Additional observations from a re-analysis of the deposited data

How the results depend on the processing

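Under 16 alternatives Stat2, Stat3 and Stat4 kept their direction and passed the threshold each time, with log2 fold changes of -0.27 to -0.24, -0.15 to -0.12 and 0.18 to 0.22, and the highest adjusted p was 0.00113, 0.0155 and 0.00298. Stat5a, Stat5b and Stat6 passed under none. Stat6 stayed positive, at 0.037 to 0.074. Leaving out 1 library at a time gave -0.018 to 0.065 for Stat5a, negative without WT replicate 1 (-0.018), and -0.061 to 0.00097 for Stat5b, positive without KO replicate 2. The median log2 fold change of all tested genes was 0.0014 to 0.012 over the 4 scalings. Pathway genes called lower ranged from 46 to 55 and higher from 8 to 11. Over the 7 alternatives run for the ratios, 10 to 13 of the 15 separated the groups. That count could not fall, because leaving out a library cannot make separated groups overlap. Using FPKM in place of counts leaves the shift of a ratio unchanged. No pairing of the libraries by replicate number was seen: correlations of same-numbered deviations were 0.058, -0.011 and -0.024. The highest correlation with a different number, WT replicate 3 with KO replicate 2, was 0.062. With 3 libraries per group this cannot exclude a pairing. With the replicate number as a block, 1969 genes were called against 2219. The 6 STAT genes kept their side of the threshold with the block, with log2 fold changes within 0.001 of the values given. At this depth and number of libraries, changes of a few percent in Stat5a and Stat5b were not detectable.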
